A study of Homo sapiens with 10 samples.

Results

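Interferon-stimulated genes are the antiviral and immune genes that cells switch on when interferon binds its receptors. The set described here has 51 of these genes, all outside the major histocompatibility complex. It was defined by name: a gene belonged to it if its symbol in the deposited tables equaled a listed symbol. The listed symbols were chosen with earlier results of these data known. All 51 were present among the 35606 gene entries of each table, and 37 had a mean of at least 1 CPM (read counts scaled to library size, the deposited unit) in each table. The cells were QGP-1, a human pancreatic neuroendocrine tumor line, and the 10 RNA-seq samples formed 5 groups of 2. In the knockdown table, cells with a control guide (sgNC, genotype WT) were compared with cells carrying 1 guide against PIKFYVE (sgPIKFYVE-1, genotype PIKFYVE knockdown). Per the study's methods, each guide came in a lentiviral vector that also encoded the CRISPR interference protein dCas9-KRAB. Infected cells were then selected with puromycin. PIKFYVE encodes the lipid kinase that makes phosphatidylinositol 3,5-bisphosphate on endolysosomes. In the drug table, WT cells received DMSO, the PIKfyve inhibitor apilimod at 1 µM, or the mTOR kinase inhibitor Torin-1 at 100 nM. The labels give both drugs a time of 24 h, the study's text gives a shorter one, and the labels state no time for DMSO. Both knockdown samples came from 1 guide, so an effect of that guide on other genes cannot be told apart from loss of PIKFYVE.

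Type I interferons act through the receptor IFNAR and the kinases JAK1 and TYK2, which phosphorylate STAT proteins. These join IRF9, and the complex binds the interferon-stimulated response element (ISRE) of its target genes. Interferon gamma acts through IFNGR and the gamma-activated site (GAS) and induces IRF1, itself an activator of many of the same targets. The products sense foreign RNA and DNA, block translation, degrade RNA, conjugate ISG15 to proteins or hold back viral entry, and many tumor lines keep some of them on at a basal level.

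The promoter matches that the results below refer to are shown for 7 members. IRF1, IFIT3, SAMD9, DTX3L and PSMB10 stand for genes raised in knockdown cells that carry either core, and IFIT1 and ISG15 for genes with ISRE cores that were not past the threshold there. The sequences are from RefSeq on GRCh38.p14, each printed 5′ to 3′ on the strand of its gene with 15 bases on either side, ending at the start site or at a core that crosses it. Capitals mark the core, and positions count from the RefSeq start site.
IRF1, chr5:132490874-132490912, minus strand, GAS core at -124: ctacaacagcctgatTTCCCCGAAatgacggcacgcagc
IFIT3, chr10:89327826-89327899, plus strand, ISRE cores at -156 and -122: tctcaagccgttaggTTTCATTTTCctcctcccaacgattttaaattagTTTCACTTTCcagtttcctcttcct
SAMD9, chr7:93118091-93118130, minus strand, ISRE core at -136: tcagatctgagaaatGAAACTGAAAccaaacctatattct
DTX3L, chr3:122564317-122564341, plus strand, ISRE core at -6: gacctccagggaagcGAAACTGAAA
PSMB10, chr16:67936851-67936886, minus strand, ISRE core at -21: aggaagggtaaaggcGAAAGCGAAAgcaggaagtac
IFIT1, chr10:89392492-89392544, plus strand, ISRE cores at -116 and -103: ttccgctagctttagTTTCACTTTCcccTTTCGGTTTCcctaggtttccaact
ISG15, chr1:1013369-1013414, plus strand, ISRE cores at -113 and -107: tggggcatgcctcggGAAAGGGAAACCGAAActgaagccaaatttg

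The ISRE core was searched as GAAANNGAAA and the GAS core as TTCNNNGAA, on both strands, from 250 bases before to 50 bases after the start. A RefSeq window was matched for 40 of the 51 members. The ISRE core was found in 23 of the 40 (57.5%), against 3.57% of 35116 promoters of the same length. The GAS core was found in 8 of the 40 (20%), against 7.66% of those promoters. Of the 41 ISRE matches, 38 lay before the start site, 14 members had more than 1, and the median position was -74. Of the 9 GAS matches, 3 overlapped an ISRE match. A match describes letters in a window and does not show that a factor binds there.

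**Figure D1:**
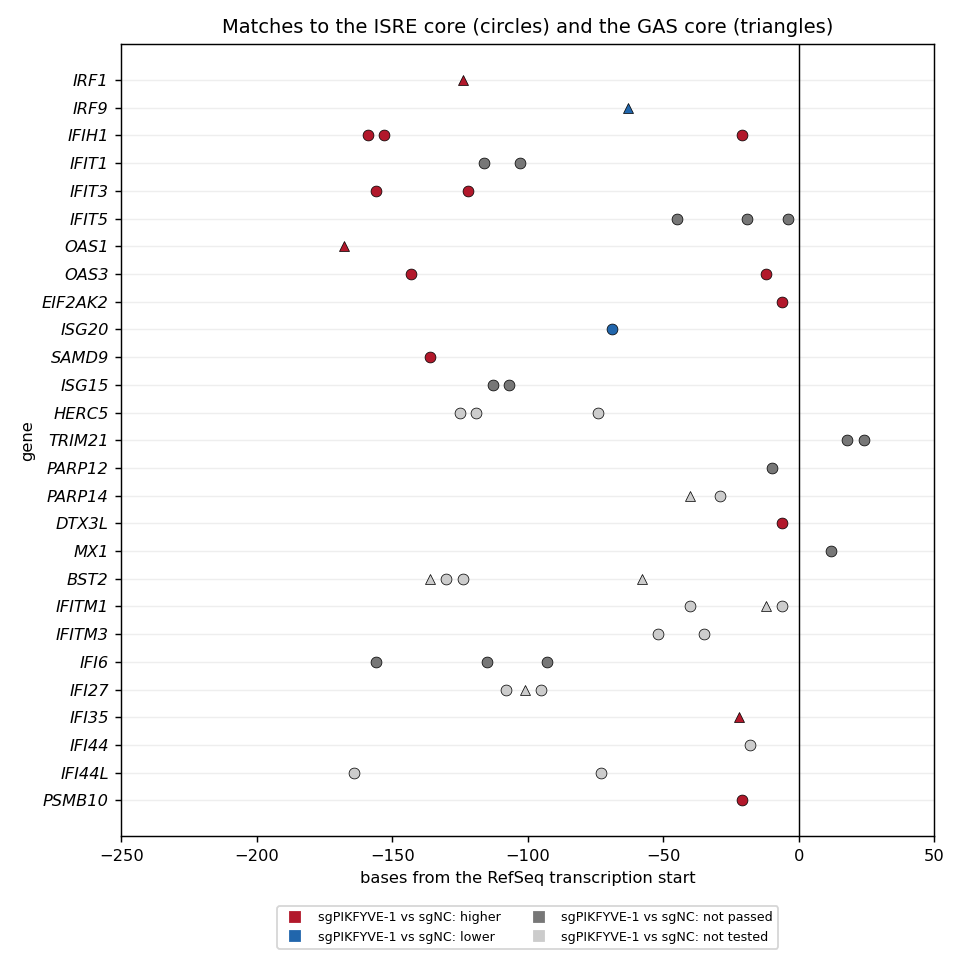
Position of each ISRE core (circles) and GAS core (triangles) in the promoters of the members that hold either, in bases from the RefSeq transcription start (x axis), 1 gene per row. Colors give the result of the knockdown comparison. Most matches lie upstream of the start, with ISRE positions from -164 to 24, and raised genes (red) occur with ISRE cores, as for IFIT3, and with a GAS core and no ISRE core, as for IRF1.

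The libraries held an estimated 9120000 to 13200000 reads, so 3 reads equaled 0.227 to 0.329 CPM. PIKFYVE itself was at 101 and 97.5 CPM in sgNC samples and at 10.9 and 12.5 CPM in sgPIKFYVE-1 samples, a log2 fold change of -2.98 (SE 0.0979, limma adjusted p = 1.22e-14), and the labels therefore held for the targeted gene. All 11 neuroendocrine markers were above 1 CPM in some sample, with a summed level of 7113 to 11205 CPM. Of 13 leukocyte markers, 10 stayed under 1 CPM, including PTPRC (highest value 0.987 CPM), and 5 were at 0 throughout. The summed leukocyte markers were nevertheless 8.61 to 8.74 CPM in sgNC and 18.5 to 20.2 CPM in sgPIKFYVE-1 samples. That rise lay in LYZ (lysozyme) alone, which went from 6.32 and 4.81 to 15.5 and 18.4 CPM (log2 fold change 1.45, limma adjusted p = 1.57e-06). CD14, the only other leukocyte marker tested there, averaged 1.65 CPM in sgNC and 0.819 CPM in sgPIKFYVE-1 samples, with no call. In the drug table the same sum was between 2.90 and 4.23 CPM in every sample. The 13 mitochondrially encoded genes took 6.90 to 6.91% of the values in sgNC and 8.33 to 8.42% in sgPIKFYVE-1 samples, against 7.36 to 7.70% in the drug table. The part of these shifts in the results below was not tested, and fewer expressing cells cannot be told apart from less RNA per cell in bulk samples. The labels do not say that replicates were separate cultures, so the p-values measure only the spread between these samples.

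PIKFYVE knockdown was compared with the control guide to ask what loss of the kinase does to the transcriptome of these cells. Among the interferon-stimulated genes, IFIT3, OAS1, IRF1, SAMD9, OAS3, IFIT2, HERC6 and UBE2L6 were all raised at least 2.06-fold. Of 37 members tested, 18 rose (48.6%) and 5 fell (13.5%), and 14 did not pass the threshold (limma, adjusted p under 0.05). Over all 13591 genes tested, 21.6% were called higher and 20.9% lower (42.5% in either direction), so the share of raised members stood above the background and the share of lowered members below it. The members, like the pathway lists below, were chosen with earlier results of these data known. The contrast with all genes is therefore a description and was not tested. The groups did not overlap for 29 members (78.4%), beside 70.6% of all genes. The median log2 fold change of the members was 0.25, beside -0.00 over all genes. With each library left out in turn, 14 of the 18 raised members stayed past the threshold every time; IFI16, EIF2AK2, SP110 and IFI35 did not. Of the 5 lowered members only STAT2 stayed past it every time, and its call was lost when the model had no variance trend (limma adjusted p = 0.0845).

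**Figure D2:**
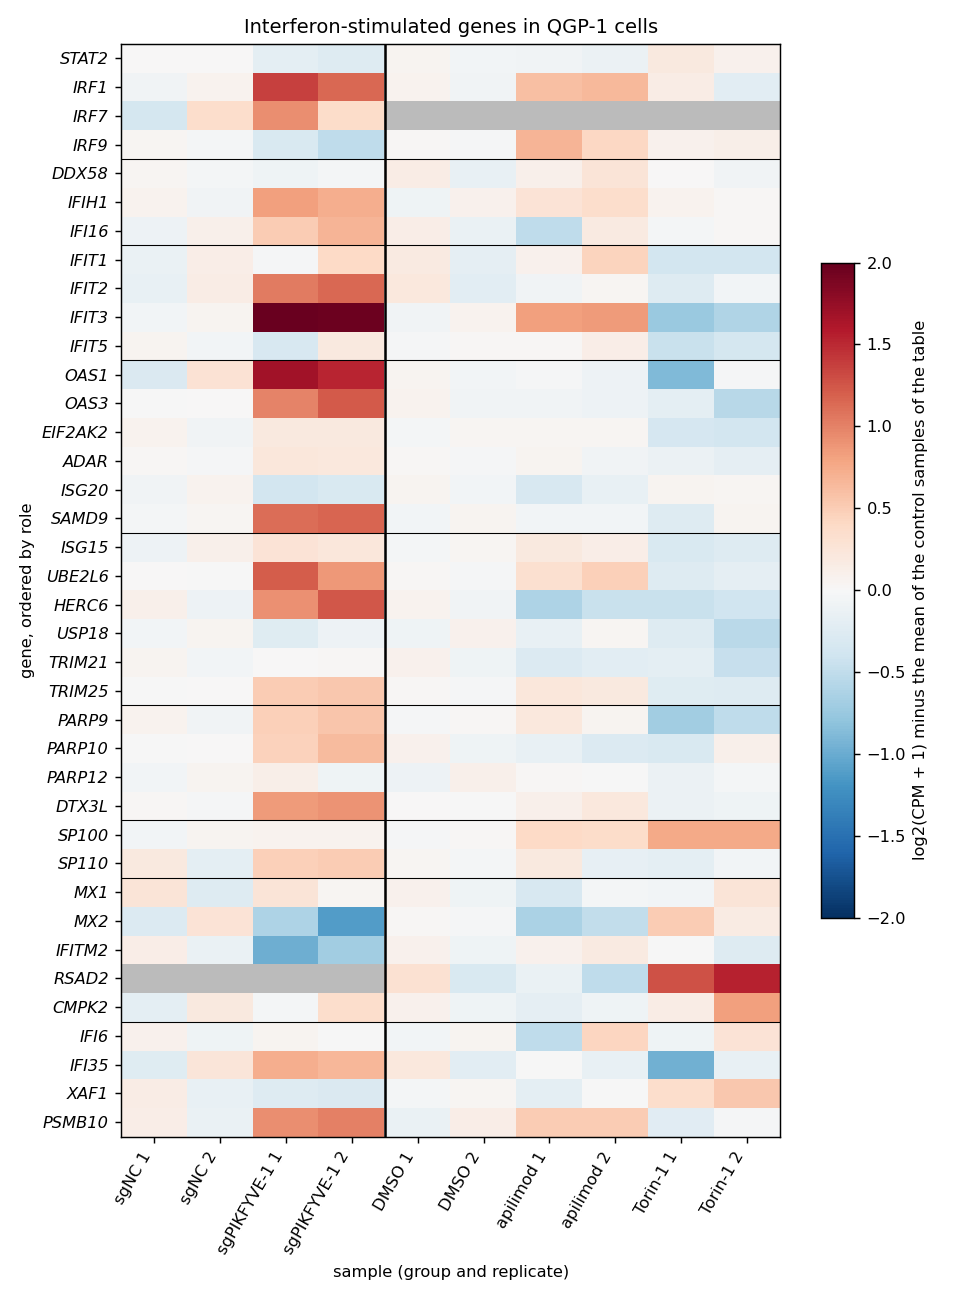
Each tested member (rows, ordered by role) in each of the 10 samples (columns), as log2(CPM + 1) minus the mean of the control samples of its own table, with red for higher, blue for lower and grey for genes under 1 CPM on average. The strongest red lies in both sgPIKFYVE-1 columns at IFIT3, OAS1 and IRF1, while few rows are red under apilimod and several are blue under Torin-1.

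Apilimod was compared with DMSO to set chemical inhibition of PIKfyve beside the knockdown. Of the 37 members tested, 4 rose (10.8%): IRF1, IFIT3, SP100 and PSMB10. None fell by limma's adjusted p, and at an unadjusted p under 0.05 there were 7 higher and 2 lower. Over all 13520 genes, 5.75% were called higher and 2.79% lower (8.54% in either direction). The members' median log2 fold change was -0.01, equal to that of all genes, and 19 members (51.4%) did not overlap with DMSO, against 50.7% of all genes. IRF1 alone stayed past the threshold with every library left out, and its call was lost without the filter on low values (limma adjusted p = 0.0655) or the variance trend of the model (0.0771).

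Torin-1 was compared with the same DMSO samples to ask what mTOR inhibition does. Here 3 members rose (SP100, RSAD2 and XAF1, 8.11%) and 8 fell (21.6%), namely IFIT3, IFIT5, OAS3, EIF2AK2, ADAR, USP18, TRIM25 and PARP9. The background was 16.6% higher and 21.8% lower (38.5% in either direction), so the share of lowered members was close to that of all genes and the share of raised members was below it. The median log2 fold change was -0.12, against -0.01 over all genes, and 22 members (59.5%) did not overlap with DMSO, against 69.3% of genes. RSAD2 reached the filter only through the Torin-1 samples (mean of the other groups 0.890 CPM), so its call follows in part from the filter; without it, 2 of 36 members rose (5.56%). SP100, EIF2AK2 and PARP9 stayed past the threshold with every library left out.

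The drugs share their DMSO samples, so they were also compared with each other. Relative to apilimod, 14 members were lower under Torin-1 (37.8%) and 6 were higher (16.2%), beside 26.2% and 20.5% of all 13520 genes (46.7% in either direction). The median difference was -0.22 on the log2 scale, beside -0.02 over all genes, and 27 members (73.0%) did not overlap, beside 72.5%. The genes lower under Torin-1 included IFIT3, PARP9, IRF1, PSMB10, UBE2L6, TRIM25, ISG15, IFIT5 and EIF2AK2, which kept that call with every library left out. Without RSAD2, 5 of 36 members were higher under Torin-1 (13.9%), and SP100 kept that call with every library left out.

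The transcription factors moved apart from each other. IRF1, the activator induced by interferon gamma and by inflammatory signals (chr5:132481609-132490798, minus strand, GRCh38), was at 16.8 and 18.6 CPM in sgNC and at 47.0 and 40.2 CPM in sgPIKFYVE-1 samples. Both knockdown samples lay far above both controls, a log2 fold change of 1.25 (SE 0.111, limma adjusted p = 3e-08). The DMSO samples had 25.2 and 22.6 CPM, the apilimod samples 36.8 and 38.1 CPM, and the Torin-1 samples 26.5 and 20.6 CPM. Apilimod thus raised IRF1 without overlap, by 0.63 on the log2 scale (SE 0.121, limma adjusted p = 0.0038), whereas Torin-1 samples spanned the DMSO values (-0.03, limma adjusted p = 0.89). An antisense entry, AC116366.3, overlaps IRF1 by 469 exonic bases. With both entries summed, the log2 ratio of means was 1.08 for the knockdown and 0.50 for apilimod.

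IRF9, the DNA-binding part of the type I interferon complex, was at 14.1 and 13.4 CPM in sgNC and 10.9 and 9.42 CPM in sgPIKFYVE-1 samples. It fell by 0.41 on the log2 scale (limma adjusted p = 0.0387), a call that was lost without sgNC 1 (adjusted p = 0.179), sgNC 2 (0.0984) or sgPIKFYVE-1 2 (0.171). Under the drugs it read 5.36 and 5.15 CPM with DMSO, 9.06 and 7.37 CPM under apilimod and 5.64 and 5.80 CPM under Torin-1. The apilimod samples were the highest, with a log2 difference of 0.55 from DMSO that missed the threshold (limma adjusted p = 0.0652). A same-strand entry, AL136295.5, holds 45.2% of the IRF9 sequence words of 31 bases, and reads may be split between the entries. With both summed, the log2 ratio of means was -0.27 for the knockdown and 0.30 for apilimod. STAT2, its signaling partner, had 130 and 130 CPM in sgNC and 114 and 109 CPM in sgPIKFYVE-1 samples and fell by 0.22 (limma adjusted p = 0.00497), while neither drug gave a call (apilimod -0.09, Torin-1 0.15). IRF7, which amplifies interferon production, was at 0.845 and 2.03 CPM in sgNC and 3.48 and 2.06 CPM in sgPIKFYVE-1 samples (0.65, limma adjusted p = 0.102). It averaged under 1 CPM in the drug table.

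**Figure D3:**
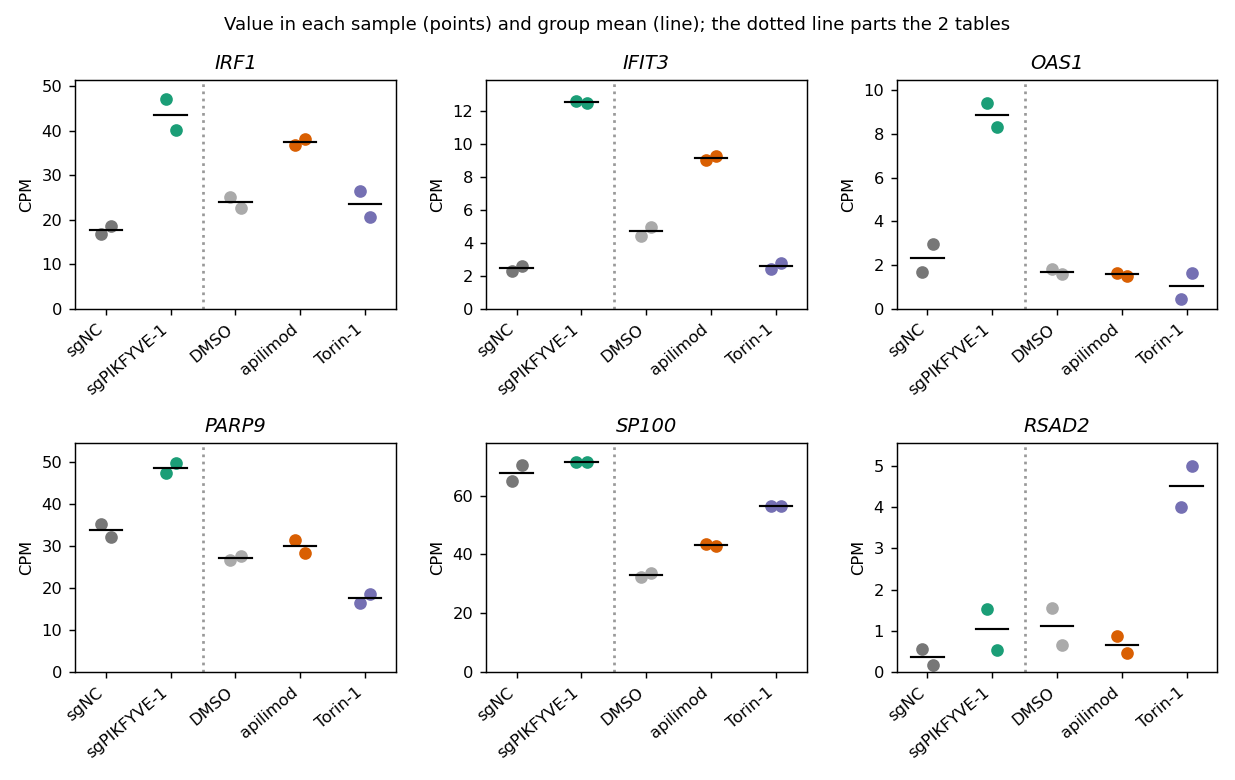
Value of 6 members in every sample, in CPM (y axis, from 0), with points for samples and lines for group means; the dotted line parts the knockdown table from the drug table. IRF1 and IFIT3 are high in sgPIKFYVE-1 and apilimod samples, OAS1 in sgPIKFYVE-1 samples, and RSAD2 in Torin-1 samples (4.01 and 5.0 CPM), while PARP9 is lowest under Torin-1.

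Of the cytosolic sensors, IFIH1 (MDA5, which detects long double-stranded RNA) was at 10.7 and 9.52 CPM in sgNC and 18.6 and 17.3 CPM in sgPIKFYVE-1 samples. It rose without overlap by 0.77 on the log2 scale (SE 0.144, limma adjusted p = 0.000245). Under DMSO it had 7.24 and 8.38 CPM, under apilimod 9.61 and 10.2 CPM and under Torin-1 8.20 and 7.93 CPM, and neither drug passed the threshold (apilimod 0.31, 95% interval -0.02 to 0.64). DDX58 (RIG-I, which detects RNA with a 5′ triphosphate) was level in the knockdown table at 24.3 and 22.8 CPM against 22.2 and 22.9 CPM, a log2 difference of -0.06 (95% interval -0.29 to 0.18). Its values in the drug table were 15.4 and 12.3 CPM under DMSO, 14.9 and 16.7 CPM under apilimod and 13.8 and 13.0 CPM under Torin-1, with overlap in both comparisons. DHX58 (LGP2, which modulates the other RNA sensors) averaged under 1 CPM in both tables, at 0.216 to 1.58 CPM. IFI16, a DNA sensor, was at 7.88 and 9.17 CPM in sgNC and 12.5 and 14.2 CPM in sgPIKFYVE-1 samples and rose by 0.59 (limma adjusted p = 0.00579). That call was lost without sgNC 1 or sgPIKFYVE-1 2, and its log2 fold change ranged from 0.50 to 0.69 with a library left out.

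The IFIT proteins bind foreign RNA and hold back its translation, and their genes stand together on chromosome 10. IFIT3 (chr10:89327894-89340971, plus strand) was at 2.32 and 2.62 CPM in sgNC and 12.6 and 12.5 CPM in sgPIKFYVE-1 samples. The knockdown values were several times the control values and nearly equal to each other, for the largest change of any member in that comparison (log2 fold change 1.97, SE 0.196, limma adjusted p = 1.43e-07). IFIT3 in the drug table was at 4.45 and 4.98 CPM under DMSO, 9.03 and 9.30 CPM under apilimod and 2.43 and 2.76 CPM under Torin-1. The apilimod samples thus lay above DMSO and the Torin-1 samples below it, with no overlap. The log2 fold changes were 0.83 (SE 0.181, limma adjusted p = 0.00936) for apilimod and -0.67 (SE 0.181, limma adjusted p = 0.0101) for Torin-1. The drugs differed directly by -1.50 (SE 0.181, limma adjusted p = 1.35e-05). The apilimod call was lost without DMSO 1 (adjusted p = 0.0871), apilimod 1 (0.0600) or apilimod 2 (0.0679), and the Torin-1 call without DMSO 2 (0.0732) or Torin-1 1 (0.0507). The difference between the drugs kept its call each time.

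Its neighbor IFIT2 (chr10:89283694-89309276, plus strand), 18617 bases away, was at 12.0 and 14.8 CPM in sgNC and 28.6 and 30.9 CPM in sgPIKFYVE-1 samples. It rose by 1.10 on the log2 scale (SE 0.129, limma adjusted p = 1.09e-06). Under the drugs IFIT2 stayed within the range of DMSO (16.6 and 12.2 CPM), with 13.5 and 14.6 CPM for apilimod and, partly below it, 11.7 and 13.7 CPM for Torin-1. The apilimod difference of IFIT2 was -0.02 (95% interval -0.35 to 0.31), and it was not tested against the knockdown. IFIT1 and IFIT5, at 1.95 to 3.24 CPM and 19.2 to 27.8 CPM in the knockdown table, did not pass the threshold (0.19 and -0.07). IFIT5 fell under Torin-1 from 21.9 and 22.6 CPM to 16.0 and 17.3 CPM (-0.40, limma adjusted p = 0.0125). That call was lost without DMSO 2 (adjusted p = 0.0766) or Torin-1 1 (0.0698). IFIT1, with matched ISRE cores like those of IFIT3, was not called in knockdown cells, where IFIT3 was.

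The 2′-5′-oligoadenylate synthetases make the messenger that activates RNase L, and OAS1, OAS3 and OAS2 lie side by side on chromosome 12. OAS1 (chr12:112906777-112933222, plus strand) was at 1.67 and 2.97 CPM in sgNC and 9.43 and 8.31 CPM in sgPIKFYVE-1 samples. The rise was 1.60 on the log2 scale (SE 0.232, limma adjusted p = 1.65e-05). OAS3 (chr12:112938352-112973249, plus strand), which starts 5129 bases past the end of OAS1, went from 8.28 and 8.40 CPM to 17.5 and 20.8 CPM, a rise of 1.11 (SE 0.150, limma adjusted p = 7.08e-06). OAS2, next in line, averaged under 1 CPM in both tables (0.446 to 1.41 CPM), and OASL was near 0. In the drug table OAS1 had 1.81 and 1.58 CPM under DMSO, 1.65 and 1.51 CPM under apilimod and 0.466 and 1.64 CPM under Torin-1, with overlap for both drugs. The apilimod difference of OAS1 was -0.06 (95% interval -0.70 to 0.58), and it too was not tested against the knockdown. OAS3 had 23.6 and 21.1 CPM under DMSO and 21.3 and 20.7 CPM under apilimod (-0.09). It fell under Torin-1 to 19.4 and 14.9 CPM (-0.37, limma adjusted p = 0.0375), a call lost without DMSO 1 (adjusted p = 0.210), DMSO 2 (0.0571) or Torin-1 2 (0.307).

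Among the other RNA effectors, SAMD9 (chr7:93099513-93118023, minus strand), a restriction factor of poxviruses, more than doubled. Its values were 33.6 and 35.3 CPM in sgNC and 75.5 and 78.4 CPM in sgPIKFYVE-1 samples, a log2 fold change of 1.14 (SE 0.0793, limma adjusted p = 1e-09). Its paralog SAMD9L, 12031 bases away, did not exceed 0.186 CPM in any sample. Under DMSO, apilimod and Torin-1, SAMD9 was at 46.4 and 50.5, 46.6 and 46.6, and 40.4 and 50.3 CPM. These ranges overlapped, and apilimod differed from DMSO by -0.05 (95% interval -0.27 to 0.16). EIF2AK2 (PKR, the kinase that stops translation on double-stranded RNA) rose by 0.20 in knockdown cells, and by 0.12 to 0.27 with a library left out. That call was lost without sgNC 2, sgPIKFYVE-1 1 or sgPIKFYVE-1 2. It was also lost without the filter on low values, under quantile normalization and without the variance trend. Under Torin-1 EIF2AK2 fell from 133 and 139 CPM to 108 and 105 CPM (-0.35, SE 0.0590, limma adjusted p = 0.00037), while apilimod samples read 140 and 140 CPM. ADAR, the RNA-editing enzyme, rose by 0.22 in knockdown cells (limma adjusted p = 0.000277). Under Torin-1 ADAR fell by 0.15 (limma adjusted p = 0.0242), a call lost without DMSO 1 (0.190), DMSO 2 (0.0587) or Torin-1 2 (0.124). ISG20, an exonuclease, fell by 0.34 in knockdown cells from 28.9 and 31.8 CPM to 23.3 and 24.3 CPM (limma adjusted p = 0.0151). That call was lost without sgNC 2 or sgPIKFYVE-1 1, and its log2 fold change ranged from -0.40 to -0.27 with a library left out.

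ISG15 is a ubiquitin-like modifier, and UBE2L6, HERC5 and HERC6 belong to its conjugation pathway or are related to it. ISG15 itself was at 15.4 and 17.7 CPM in sgNC and 20.2 and 19.5 CPM in sgPIKFYVE-1 samples and did not pass the threshold (0.25, limma adjusted p = 0.126). UBE2L6, its conjugating enzyme, went from 14.9 and 14.8 CPM to 35.5 and 28.0 CPM, a rise of 1.04 (SE 0.126, limma adjusted p = 1.88e-06). HERC6, a HERC-type ligase, went from 1.58 and 1.22 CPM to 3.51 and 4.64 CPM, a rise of 1.07 (SE 0.264, limma adjusted p = 0.00274). The conjugating enzyme and HERC6 thus rose while the modifier missed the threshold, and the main human ISG15 ligase HERC5 did not exceed 0.543 CPM in any sample. UBE2L6 in the drug table was at 12.1 and 11.8 CPM under DMSO, 15.2 and 17.0 CPM under apilimod (0.40, limma adjusted p = 0.0866) and 9.78 and 10.4 CPM under Torin-1 (-0.22, limma adjusted p = 0.210). Apilimod samples were the highest and Torin-1 samples the lowest, and the drugs differed directly by -0.62 (limma adjusted p = 0.00166). HERC6 had 5.61 and 5.06 CPM under DMSO, 3.14 and 3.63 CPM under apilimod and 3.63 and 3.79 CPM under Torin-1, where neither drug passed the threshold (-0.53 and -0.43).

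TRIM25, the ubiquitin ligase that acts on RIG-I signaling, went from 73.1 and 73.2 CPM in sgNC to 104 and 107 CPM in sgPIKFYVE-1 samples, a rise of 0.52 (SE 0.0641, limma adjusted p = 2.06e-06). Its DMSO values of 90.9 and 87.5 CPM lay between those under apilimod, 105 and 102 CPM, and those under Torin-1, 75.1 and 74.6 CPM. The groups did not overlap, but only Torin-1 passed the threshold (-0.25, limma adjusted p = 0.00788; apilimod 0.22, limma adjusted p = 0.0550). Without DMSO 1 the Torin-1 value had an adjusted p of 0.0839. USP18, which removes ISG15 and dampens the type I receptor, was at 16.1 and 17.5 CPM against 14.1 and 15.6 CPM in the knockdown table (-0.17, limma adjusted p = 0.349). Under Torin-1 it fell from 30.5 and 34.5 CPM to 27.0 and 22.1 CPM (-0.39, limma adjusted p = 0.0176), a call lost without DMSO 2 (adjusted p = 0.142) or Torin-1 2 (0.149). The entry for USP41 shares 28.8% of the USP18 sequence words, and the sum of both fell less, with a log2 ratio of means of -0.18. TRIM21, the cytosolic antibody receptor, had no call in any comparison with a control.

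PARP9 and DTX3L form a complex that adds ADP-ribose and ubiquitin. Their genes lie on opposite strands and overlap at their start ends, with starts 339 bases apart on chromosome 3. DTX3L (chr3:122564238-122575203, plus strand) went from 42.3 and 40.7 CPM in sgNC to 75.6 and 78.5 CPM in sgPIKFYVE-1 samples, a rise of 0.88 (SE 0.0762, limma adjusted p = 2.33e-08). PARP9 (chr3:122527924-122564577, minus strand) went from 35.3 and 32.1 CPM to 47.3 and 49.7 CPM, a rise of 0.51 (SE 0.0898, limma adjusted p = 0.000132). Both partners rose, DTX3L by more, and the groups overlapped for neither gene. PARP9 in the drug table was at 26.6 and 27.7 CPM under DMSO, 31.5 and 28.3 CPM under apilimod and 16.4 and 18.7 CPM under Torin-1. It fell under Torin-1 by 0.60 (SE 0.111, limma adjusted p = 0.00075). DTX3L had 47.7 and 47.1 CPM under DMSO, 51.1 and 54.8 CPM under apilimod and 43.6 and 44.8 CPM under Torin-1, with no call for either drug (0.16 and -0.10). The entries overlap by 217 exonic bases on opposite strands, and with both summed the log2 ratio of means was 0.73 for the knockdown and -0.27 for Torin-1. PARP10 and PARP12, other ADP-ribosyltransferases, had no call in any comparison, and PARP14 did not exceed 0.193 CPM.

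**Figure D4:**
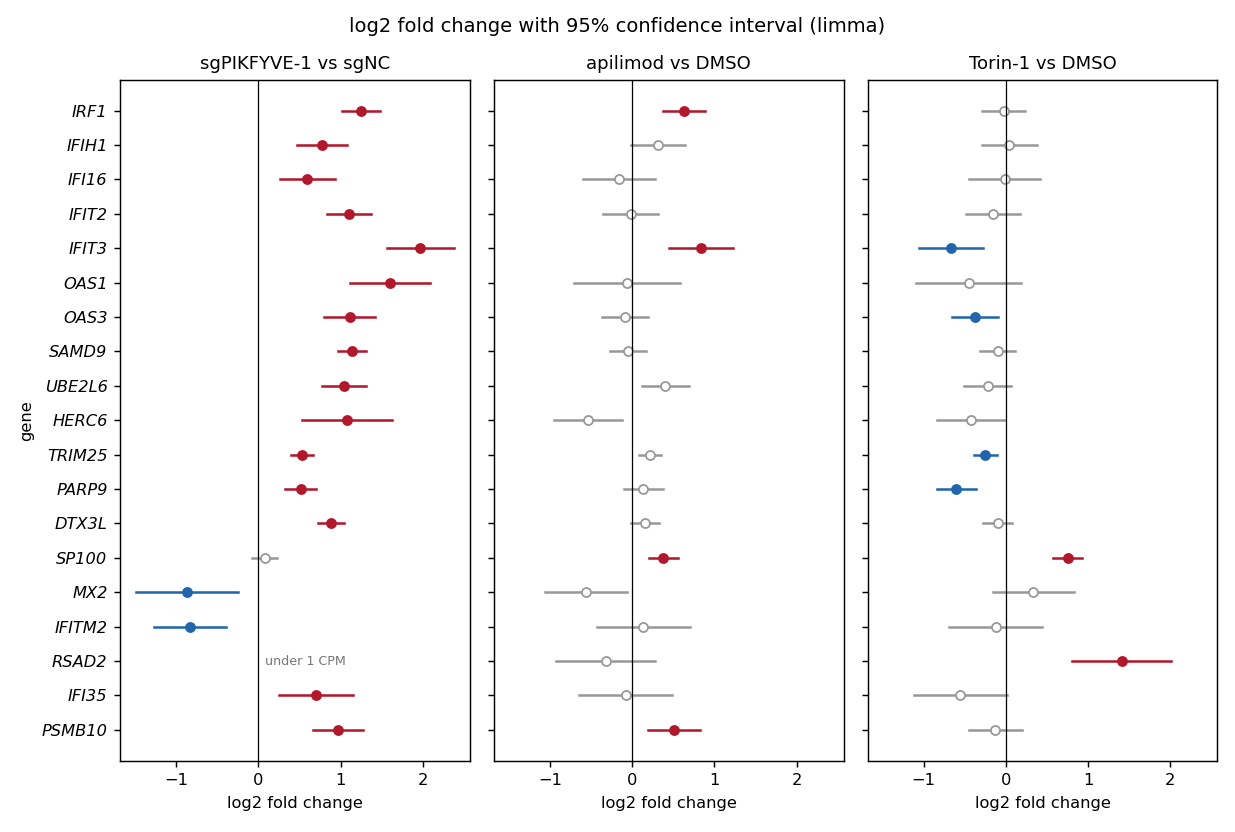
Log2 fold change with 95% confidence interval (limma) for the members called with a change of at least 0.5 in any of the 3 comparisons with a control, 1 panel per comparison; filled red and blue points passed the threshold as higher and lower, and open points did not. Most genes sit right of 0 in the knockdown panel, which follows in part from how they were chosen. IRF1, IFIT3, SP100 and PSMB10 are filled in the apilimod panel. The Torin-1 panel has blue points for IFIT3, OAS3, TRIM25 and PARP9 and red points for SP100 and RSAD2.

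SP100, a component of PML nuclear bodies that represses viral DNA (chr2:230415942-230544090, plus strand), behaved differently from most of the set. It was at 65.0 and 70.5 CPM in sgNC and 71.5 and 71.4 CPM in sgPIKFYVE-1 samples, a log2 difference of 0.08 (95% interval -0.07 to 0.23). In the drug table it had 32.5 and 33.7 CPM under DMSO, 43.7 and 43.0 CPM under apilimod and 56.6 and 56.4 CPM under Torin-1. The 3 groups were stepped with no overlap, and SP100 rose under both drugs. The log2 fold changes were 0.38 for apilimod (SE 0.0817, limma adjusted p = 0.00867) and 0.75 for Torin-1 (SE 0.0817, limma adjusted p = 8.53e-06), with a direct difference of 0.37 (limma adjusted p = 0.00191). The apilimod call was lost without DMSO 1 (adjusted p = 0.0916), DMSO 2 (0.0501) or apilimod 1 (0.0583). SP110, a related nuclear body protein, rose in knockdown cells from 6.77 and 4.98 CPM to 8.44 and 8.74 CPM (0.49, limma adjusted p = 0.0458). That call was lost without sgNC 2, sgPIKFYVE-1 1 or sgPIKFYVE-1 2, and its log2 fold change ranged from 0.30 to 0.68 with a library left out.

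The membrane and GTPase factors hold back entry and early steps of viral growth, and none of the 4 tested in the knockdown table rose there. MX2, a dynamin-like GTPase that blocks HIV, was at 2.35 and 3.88 CPM in sgNC and 1.65 and 0.864 CPM in sgPIKFYVE-1 samples. It fell by 0.86 (SE 0.297, limma adjusted p = 0.0246), and the call was lost without sgNC 2 (adjusted p = 0.263) or sgPIKFYVE-1 2 (0.168). Under DMSO it was at 2.56 and 2.48 CPM, under apilimod at 1.26 and 1.51 CPM and under Torin-1 at 4.01 and 2.93 CPM. Neither drug passed the threshold against DMSO (-0.56 and 0.34), and the direct difference of 0.90 did (limma adjusted p = 0.0058), except without Torin-1 1 (0.0629). MX1, 10913 bases away, had 4.27 and 2.71 CPM against 4.31 and 3.56 CPM with no call (0.15). IFITM2, which blocks fusion of viruses in endosomes, went from 8.16 and 6.70 CPM to 3.29 and 4.21 CPM, a fall of 0.83 (SE 0.211, limma adjusted p = 0.00357). Without sgNC 1 its adjusted p was 0.0531. IFITM1, IFITM2 and IFITM3 share sequence with other entries, mostly each other (35.3 to 45% of each gene's words), and summed they were at 9.18 and 8.66 CPM in sgNC and 4.07 and 4.42 CPM in sgPIKFYVE-1 samples.

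RSAD2 (viperin, which makes a chain-terminating nucleotide) and CMPK2, a mitochondrial nucleotide kinase, lie on opposite strands of chromosome 2. The genes overlap at their start ends, with starts 829 bases apart. RSAD2 (chr2:6865806-6898239, plus strand) was at 1.56 and 0.665 CPM under DMSO, 0.881 and 0.454 CPM under apilimod and 4.01 and 5.0 CPM under Torin-1. Both Torin-1 samples stood above all others, with a log2 difference of 1.41 from DMSO and 1.73 from apilimod. These are given as a description, since RSAD2 was tested only because it was high under Torin-1. CMPK2 had 3.71 and 3.15 CPM under DMSO and 3.91 and 6.81 CPM under Torin-1, and did not pass the threshold against DMSO (0.49, limma adjusted p = 0.117). In the knockdown table RSAD2 averaged under 1 CPM (0.176 to 1.54 CPM) and CMPK2 had no call (0.16).

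Of the remaining members, PSMB10 (chr16:67934502-67937087, minus strand), a catalytic subunit of the immunoproteasome, was at 10.9 and 8.97 CPM in sgNC and 19.7 and 21.0 CPM in sgPIKFYVE-1 samples. It rose by 0.97 (SE 0.145, limma adjusted p = 2.29e-05). Under apilimod PSMB10 rose from 9.51 and 11.7 CPM to 15.4 and 15.5 CPM (0.51, SE 0.149, limma adjusted p = 0.0491). Leaving out any of DMSO 1, DMSO 2, apilimod 1 or apilimod 2 lost that call, with adjusted p-values of 0.335, 0.0577, 0.178 and 0.163. Torin-1 samples were at 8.83 and 10.4 CPM (-0.13), and a same-strand entry, AC040162.1, shares 30.2% of the PSMB10 sequence words. With that entry added, the log2 ratio of means was 0.80 for the knockdown and 0.45 for apilimod. IFI35, which acts in inflammatory signaling, rose in knockdown cells from 3.25 and 4.98 CPM to 7.34 and 7.01 CPM (0.70, limma adjusted p = 0.0136), a call lost without sgNC 1 (0.187) or sgPIKFYVE-1 1 (0.0705). XAF1, which promotes cell death, rose under Torin-1 from 11.8 and 12.5 CPM to 15.7 and 18.1 CPM (0.44, limma adjusted p = 0.0212), a call lost without DMSO 1 (0.111), DMSO 2 (0.0564) or Torin-1 2 (0.141). IFI6, a mitochondrial survival protein, had no call in any comparison with a control.

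Across the comparisons with a control, 28 of 38 tested members had at least 1 call (73.7%), beside 60.2% of the 13876 genes tested in either table. IRF1, IFIT3 and PSMB10, 3 of the 36 members tested in both tables (8.33%), rose both in knockdown cells and under apilimod, as did 3.71% of 13235 genes. IFIT3, OAS3, EIF2AK2, ADAR, TRIM25 and PARP9 rose in knockdown cells and fell under Torin-1 (16.7%), as did 10.4% of those genes. By limma's adjusted p, or at an unadjusted p under 0.05, 0 members rose in both, and 1.77% of the genes did by adjusted p. Of the members raised in knockdown cells and under apilimod, only IRF1 kept both calls with every library left out. Of those raised in knockdown cells and lowered under Torin-1, only PARP9 did. The tables were normalized separately, so these are calls set side by side and the knockdown was not tested against either drug. Another 13 members averaged under 1 CPM in both tables, namely DHX58, OAS2, OASL, SAMD9L, HERC5, PARP14, TRIM22, BST2, IFITM1, IFITM3, IFI27, IFI44 and IFI44L. Several of these, such as IFI27, IFI44L, OASL and BST2, are among the most inducible targets in cells given interferon. Other interferon targets of the set did pass the filter: IFIT3 rose most in knockdown cells, and IFIT1, ISG15, MX1 and IFI6 had no call there. What this means for interferon as a cause was not tested. IFI44 was at 0 in all 6 drug samples, and at this depth a level under the 3-read value given above could not be told from 0. Membership of the promoter classes was also set beside the calls. Of 15 tested members with an ISRE core, 7 rose and 1 fell in knockdown cells (median log2 fold change 0.20), and of 15 tested members with a matched promoter and no such core, 10 rose and 2 fell (0.51). Under Torin-1 the tested members with an ISRE core had 0 raised and 4 lowered of 15, and those without had 3 raised and 3 lowered of 16; no member with the core was higher at an unadjusted p under 0.05 either.

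The rest of the pathway was read from fixed lists. The 21 interferon ligands were all under 1 CPM in every sample and 19 of them were at 0 throughout, IFNB1 and IFNG among them. Only IFNE and IFNW1 had any signal, and the sum over all ligands did not exceed 0.371 CPM. All 11 receptors, kinases and STAT partners were expressed. In knockdown cells 4 of them rose (36.4%) and 2 fell (18.2%), beside 21.6% and 20.9% of all genes. IFNGR2, the signaling chain of the interferon gamma receptor, went from 8.79 and 10.3 CPM to 22.8 and 14.6 CPM (0.87, limma adjusted p = 0.000549). IFNAR1 and STAT3 also rose, while TYK2 fell by 0.47 (limma adjusted p = 0.000108). IFNGR1 fell by 0.29, a call lost with any 1 library left out (adjusted p from 0.0569 to 0.208).

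Under apilimod only STAT3 of that list passed the threshold (9.09%, beside 5.75% of all genes called higher). It went from 220 and 232 CPM to 310 and 285 CPM (0.39, limma adjusted p = 0.000434). Under Torin-1 STAT3 fell to 173 and 163 CPM (-0.42, limma adjusted p = 6.97e-05). IFNAR2, a chain of the type I receptor, fell by 0.47 (limma adjusted p = 0.0145), a call lost without DMSO 1 (0.0703), DMSO 2 (0.0508) or Torin-1 2 (0.154). JAK1 was called higher under Torin-1 by 0.16, a call lost without DMSO 1 (limma adjusted p = 0.158), DMSO 2 (0.170) or Torin-1 2 (0.287). Of the 11 inhibitors of this signaling, 3 rose (27.3%) and 4 fell (36.4%) in knockdown cells, beside 21.6% and 20.9% of all genes. Under apilimod 1 rose (9.09%, beside 5.75%). Torin-1 gave 2 raised (18.2%) and 5 lowered (45.5%), beside 16.6% and 21.8%. The Torin-1 calls of PTPN2, PTPN6, SOCS1, PIAS2 and PTPN11 were lost with at least 1 library left out. So were the knockdown calls of PTPN2, PTPN11 and PIAS1. SOCS3, a feedback inhibitor induced by STAT3, was at 16.5 and 13.6 CPM under DMSO, 26.0 and 25.9 CPM under apilimod and 7.92 and 8.97 CPM under Torin-1. It moved in the same direction as STAT3 in both drugs, up by 0.75 (limma adjusted p = 0.00227) and down by 0.76 (limma adjusted p = 0.000551). In knockdown cells STAT3 was called higher by 0.21 (limma adjusted p = 0.000625), and SOCS3 was not called (0.26, limma adjusted p = 0.0516). A link between the 2 genes was not tested.

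A further list of 38 interferon-stimulated genes not among the members had 14 raised (50%) and 3 lowered (10.7%) of 28 tested in knockdown cells. Over all genes 21.6% were raised and 20.9% lowered. APOL1, among the raised, averaged 0.415 CPM in sgNC and 2.27 CPM in sgPIKFYVE-1 samples. It passed the filter only through the knockdown samples, so its call follows in part from the filter. The raised calls of LY6E, NMI, SHISA5, TRIM14, TNFSF10, APOL1 and ZC3HAV1 were lost with at least 1 library left out, as was the lowered call of HELZ2. APOL6, an apolipoprotein L induced by interferon gamma, went from 27.6 and 22.8 CPM to 66.5 and 79.5 CPM (1.50, limma adjusted p = 8.98e-10), and GBP3, a guanylate-binding protein, from 0.835 and 2.10 CPM to 5.15 and 6.15 CPM (1.48, limma adjusted p = 0.00024). APOL6 also rose under apilimod, from 29.5 and 29.4 CPM to 42.0 and 45.9 CPM (0.56, limma adjusted p = 0.00191), and fell under Torin-1 to 21.1 and 23.0 CPM (-0.40, limma adjusted p = 0.0052). Under apilimod this list had 1 raised and 1 lowered of 25 (4% each), beside 5.75% and 2.79% of all genes. Under Torin-1 it had 6 lowered (24%), close to the 21.8% of all genes. There 0 were raised (3 at an unadjusted p under 0.05 in limma), beside 16.6% of all genes. IFI30, the lysosomal thiol reductase, fell in knockdown cells from 47.3 and 47.4 CPM to 32.9 and 32.8 CPM (-0.51, limma adjusted p = 9.82e-05). Under Torin-1 it fell from 40.2 and 39.0 CPM to 14.5 and 16.5 CPM (-1.30, limma adjusted p = 3.08e-07). The chemokines CXCL9, CXCL10 and CXCL11, common readouts of an interferon response, were at 0 in all 10 samples.

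**Figure D5:**
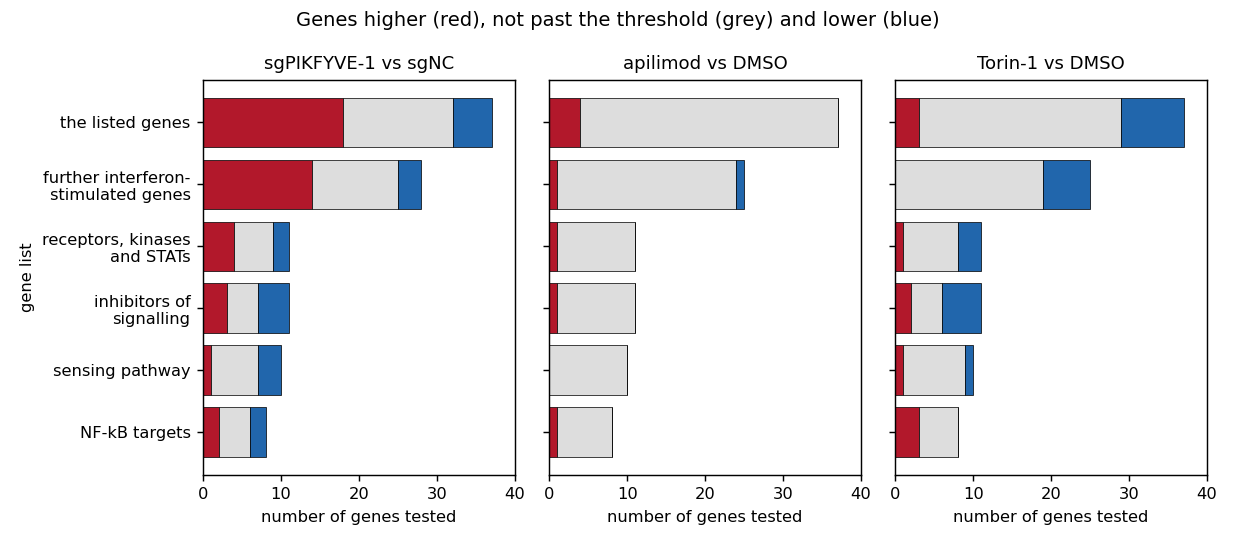
Number of tested genes (x axis) called higher (red), not past the threshold (grey) and lower (blue) in each list, 1 panel per comparison with a control, by limma. The members and the further interferon-stimulated genes have the most raised genes in the knockdown panel (18 of 37 and 14 of 28), and few raised genes in the drug panels. Over all genes tested, 21.6% were raised in the knockdown comparison. APOL1 of the further list passed the filter only through sgPIKFYVE-1 samples.

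The sensing pathway upstream of interferon had 1 gene raised (10%) and 3 lowered (30%) of 10 tested in knockdown cells, beside 21.6% and 20.9% of all genes. The kinase TBK1 and its substrate IRF3 fell by 0.34 and 0.36. With a library left out, TBK1 ranged from -0.42 to -0.26 and IRF3 from -0.51 to -0.20. The calls of IRF3, IRF5 and MYD88 were each lost with at least 1 library left out. Apilimod gave 0 calls in this list by limma (1 higher at an unadjusted p under 0.05), beside 8.54% of all genes. Torin-1 gave 1 in each direction (10%, beside 16.6% higher and 21.8% lower), with the adaptor MYD88 down by 0.45 (limma adjusted p = 0.00112). Of 8 tested NF-kB targets, 2 rose (25%) and 2 fell (25%) in knockdown cells, 1 rose under apilimod (12.5%) and 3 rose under Torin-1 (37.5%). The shares of all genes called higher were 21.6%, 5.75% and 16.6%, and 20.9% were lower in knockdown cells. The raised call of NFKBIA in knockdown cells and that of RELB under Torin-1 were lost with at least 1 library left out. ICAM1, an adhesion molecule, went from 5.76 and 4.56 CPM to 13.8 and 11.4 CPM in knockdown cells (1.14, limma adjusted p = 5.35e-05) and from 1.81 and 2.49 CPM to 4.95 and 5.79 CPM under apilimod (1.02, limma adjusted p = 0.0105). The apilimod call of ICAM1 was lost without DMSO 1 (adjusted p = 0.109) or apilimod 2 (0.0897). TRAF1 fell by 1.05 in knockdown cells and rose by 0.74 under Torin-1.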

How the data were processed

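RNA-seq was done on 10 QGP-1 samples in 5 groups. Per the labels and methods, the authors demultiplexed with bcl2fastq 2.20, checked reads with FastQC, trimmed with Trimmomatic, quantified transcripts and summed them to genes on hg38, scaled by TMM factors in edgeR, and used DESeq2. The quantifier and annotation are not given in the sources used here. The labels name rRNA depletion and the methods oligo(dT) selection, so the selection step is uncertain. The deposited signal is this TMM-scaled CPM, with each table scaled on its own. Only 68.1 to 71.5% of low values were whole multiples of 1 read (tolerance 0.02 reads). A count test was therefore not run, and read depth is an estimate.

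Genes that averaged 1 CPM or more were log2-transformed after adding 1 and tested in R 4.3.3 using limma 3.58.1 (variance trend, no covariates), 4 samples in the knockdown fit and 6 in the drug fit. P-values were adjusted by Benjamini-Hochberg over all genes tested, with a threshold of 0.05, and fold changes are on the log2(CPM + 1) scale, which understates changes of low genes. Scripts used Python 3.11.15 with pandas 2.3.3 and matplotlib 3.10.9. Fits were tested on simulated data. Gene positions are from GENCODE 29 on GRCh38.

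The members and lists were chosen with earlier results of these data known. Values in every sample are given for members called with an absolute log2 fold change of at least 0.5 against a control, and for the transcription factors and RNA helicase sensors. Of each list, the called genes with the highest and lowest changes are named. IFIT5, EIF2AK2, ADAR, ISG20, SP110, USP18, XAF1 and CMPK2 and some list genes were named after their values were seen. No chance test of a list was made. Alternatives were another pseudocount, no filter, quantile normalization, no variance trend, a replicate block, only the compared groups, and each library left out. The value of 1 listed pathway gene and 1 promoter sequence are not reported here.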

Additional observations from a re-analysis of the deposited data

Results flagged for a closer look

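IFIT3 responded differently to the drugs: its log2 fold change was 0.83 under apilimod and -0.67 under Torin-1, and the direct difference of -1.50 passed the threshold (limma adjusted p = 1.35e-05). For 4 members every knockdown sample moved one way from its controls and every apilimod sample the other way, and in each case the difference between the comparisons was not tested, since the tables were normalized separately. IRF9 differed by -0.41 in knockdown cells and by 0.55 under apilimod, the latter short of the threshold. HERC6 differed by 1.07 in knockdown cells and by -0.53 under apilimod, also short of it. PARP10 differed by 0.55 in knockdown cells and by -0.20 under apilimod, with neither past the threshold. IFITM2 differed by -0.83 in knockdown cells and by 0.14 under apilimod, where 1 apilimod and 1 DMSO sample both rounded to 1.36 CPM.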

How the results depend on the processing

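Counts of raised members in knockdown cells (18) and under Torin-1 (3), and both counts between the drugs, stayed within 1.5 times of these values in every alternative. With each library left out they ranged from 15 to 17, 2 to 4, and 4 to 6 higher with 11 to 12 lower between the drugs. The 5 members lowered in knockdown cells became 2 without the filter on low values, 3 under quantile normalization, 3 without the variance trend, and 2 to 4 with a library left out. The 4 raised under apilimod became 1 without the filter, 2 without the variance trend, and 1 to 5 with a library left out, and the 0 lowered became 1 (HERC6) without the variance trend. The 8 lowered under Torin-1 became 5 without the filter and 3 to 8 with a library left out. Of the 5 members lowered in knockdown cells, only STAT2 kept its call without the filter, so the count there includes a member not among those 5. The cause of these changes in count was not tested. Over 58 pairs of a member and a comparison past the threshold, 627 alternative values kept their side of it 509 times, lost it 118 times and never changed sign, and 28 pairs kept it throughout. PIKFYVE itself ranged from -3.08 to -2.89 with a library left out.

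Replicate numbers are shared between groups, but deviations of samples with the same number correlated by only 0.04 to 0.10, so the numbers were not taken as pairs. A replicate block gave 18 higher and 5 lower in knockdown cells, 5 and 0 under apilimod (adding TRIM25), 4 and 8 under Torin-1 (adding STAT2), and 6 and 14 between the drugs. Between the drugs, the calls of STAT2, IRF9, IFIT1, ADAR, USP18, DTX3L, MX2, CMPK2 and XAF1 were lost with at least 1 library left out. Changes of genes near 1 CPM rest on about 10 reads and are the least precise.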
